A study of Homo sapiens with 87 samples.

Results

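Collagen chain genes encode the alpha chains of collagens, and they were taken here as every symbol of the form COL, number, A, number in the count tables of an RNA-seq study of HAP1 cells. The pattern matched 44 of the 35438 genes listed. HAP1 is a near-haploid human cell line derived from a chronic myeloid leukaemia, grown here in IMDM with fetal bovine serum, and the study measured poly-A RNA after loss of subunits of BAF, a family of chromatin-remodelling complexes. The knockout table held 75 libraries, 3 of unedited wild type and 3 of each of 24 knockout clones: ACTB, ARID1A (clones 618-10 and 618-3), ARID1B, ARID2, BCL11A, BCL11B, BCL7A, BCL7B, BRD7, BRD9, DPF1, DPF2, DPF3, PBRM1, PHF10, SMARCA2, SMARCA4 (clones 2878-4 and 2878-6), SMARCC1, SMARCC2, SMARCD1, SMARCD2 and SMARCD3. The double-loss table held 12 libraries, 2 of each of 6 groups: wild type with a control knockdown, wild type with SMARCA4 and ARID2 both knocked down, ARID2 knockout with a control or a SMARCA4 knockdown, and SMARCA4 knockout with a control or an ARID2 knockdown. Except for ARID1A and SMARCA4, 1 clone stood for each gene, so the loss of a subunit and other differences of that clone cannot be told apart. The labels give no clone number for SMARCC2. Its libraries are listed among those of the double-loss series, apart from wild type and the other clones. Any difference that comes with this cannot be told apart from the loss of SMARCC2. No label states that libraries of 1 group were grown apart, so the p-values measure the spread between these libraries, which may be technical.

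Collagens are secreted proteins built of alpha chains that wind into a helix with particular partners, so the chains a cell transcribes limit which collagens it can make. Fibril-forming collagens build the ropes of connective tissue and cartilage, type IV chains the sheet of basement membranes, and type VI chains beaded filaments. FACIT collagens attach to the surface of fibrils, and a small group stays anchored in the cell membrane.

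The knockout libraries held 14917644 to 29993652 counts each, and those of the double-loss series 9144150 to 19789622. Levels below are in CPM, a gene's counts as a share of its library's total scaled by the usual factor, and differences are log2 fold changes from edgeR's quasi-likelihood fit over all libraries of a table, with Benjamini-Hochberg adjustment over all genes tested. A gene was called where the adjusted p was at most 0.05 and the absolute log2 fold change at least 1. It was on in a group where every library reached 1 CPM, and at the floor where every library had at most 3 counts. The lowest value in both tables is 1, so 1 count cannot be told apart from 0. The mRNA of the knocked-out gene itself was called lower in 14 of 24 clones and not called in 10. Of 10 blood lineage genes 4 were on in wild type (KIT, TAL1, GATA2 and RUNX1), while PTPRC (0.124 CPM), GATA1 (0.0487 CPM) and LMO2 (0.0638 CPM) were near the minimum. None of 6 genes listed for A549, a lung line also cultured in the study, was on in wild type.

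Of the 44 chain genes, 29 passed the filter on low counts among the knockout libraries. Among the double-loss libraries 26 did, where COL5A1, COL8A1 and COL12A1 dropped out too. The 15 that failed in both were COL1A2, COL4A1, COL4A2, COL6A5, COL6A6, COL8A2, COL10A1, COL11A2, COL13A1, COL14A1, COL15A1, COL16A1, COL20A1, COL21A1 and COL22A1, and no library of the knockout table had more than 13 counts for any of them. In wild type 19 members were on. Over the 25 groups 13 were on in all, 26 in at least 1, and the number on in a group ran from 17 to 22. Some chains were thus measured without their usual partner. COL1A1 was at 22.8 ± 2.15 CPM (SD, n = 3) in wild type while COL1A2, the other chain of type I collagen, had 3, 2 and 2 counts in the 3 libraries. COL4A3, COL4A4, COL4A5 and COL4A6 were all on, while COL4A1 and COL4A2, the chains of the most widespread basement membrane collagen, had 1, 1 and 1 counts and 2, 1 and 4 counts.

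Levels of different genes can be compared only per length, so CPM was divided by the length in kb of each gene's longest GENCODE transcript, which need not be the form the cells make. COL2A1, the main fibril chain of cartilage, stood first in wild type at 96.5 ± 7.97 CPM per kb (SD, n = 3), followed by COL6A1 of the beaded filaments at 40.3 ± 1.42. COL18A1, the source of endostatin, at 18.1 ± 1.21 and COL6A2 at 16.8 ± 0.475 did not differ beyond their spread, nor did COL27A1 (13.5 ± 1.28), COL4A6 (12.9 ± 2.70) and COL4A5 (12.2 ± 3.36). COL26A1 followed at 9.92 ± 0.618, COL5A2 at 7.09 ± 1.16 and COL1A1 at 3.39 ± 0.319. COL11A1 (2.76 ± 0.236) and COL6A3 (2.55 ± 1.10) came next and overlapped in spread. Of 6 chondrocyte markers COMP alone was on in wild type, at 2.81 ± 0.846 CPM, and SOX9 (0.124 CPM) and HAPLN1 (0.0487 CPM) were near the minimum.

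**Figure D1:**
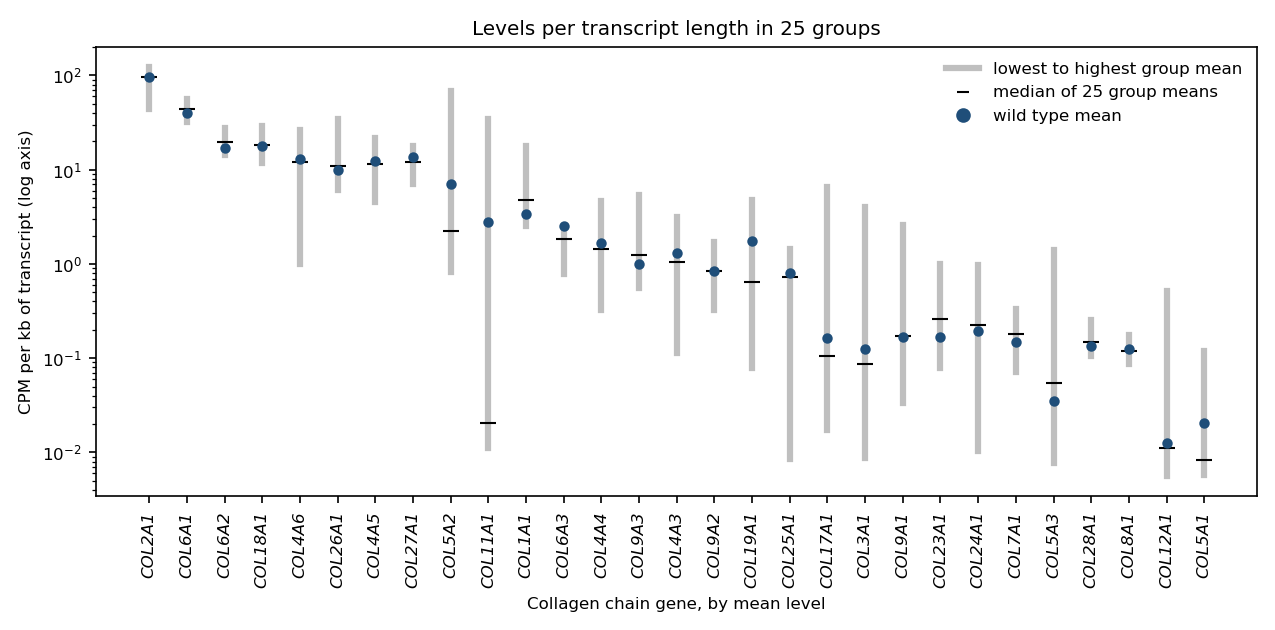
Level of the 29 tested collagen chain genes in CPM per kb of transcript, on a log axis, with genes ordered by their mean level. Grey bars run from the lowest to the highest of the 25 group means, ticks mark their median and points the wild-type mean. COL2A1 is highest in wild type at 96.5, and COL11A1 spans the widest ratio, from 0.0111 to 34.3.

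Across the 25 groups 26 of the 29 tested members differed at an adjusted p of at most 0.05, against 75.4% of all genes tested. COL6A3, COL8A1 and COL28A1 did not pass. Members that passed the filter only through the groups where they were high had to differ, so this count supports nothing by itself. In 696 pairs of a member and a clone set against wild type, 77 were called higher and 100 lower, where the shares over all genes were 2.46% and 2.24% (4.7% in either direction). Members that passed only through their high groups, such as COL12A1 and COL5A1, are in these counts too. The counts therefore support nothing by themselves, nor do those by clone and in the double-loss table further on. The called pairs fell on 23 members, 12 of which were higher in some clones and lower in others. COL6A1, COL6A2, COL8A1, COL18A1, COL27A1 and COL28A1 were called in no clone. All 24 comparisons share the 3 wild-type libraries. In bulk RNA fewer cells expressing a gene and less RNA per cell cannot be told apart.

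**Figure D2:**
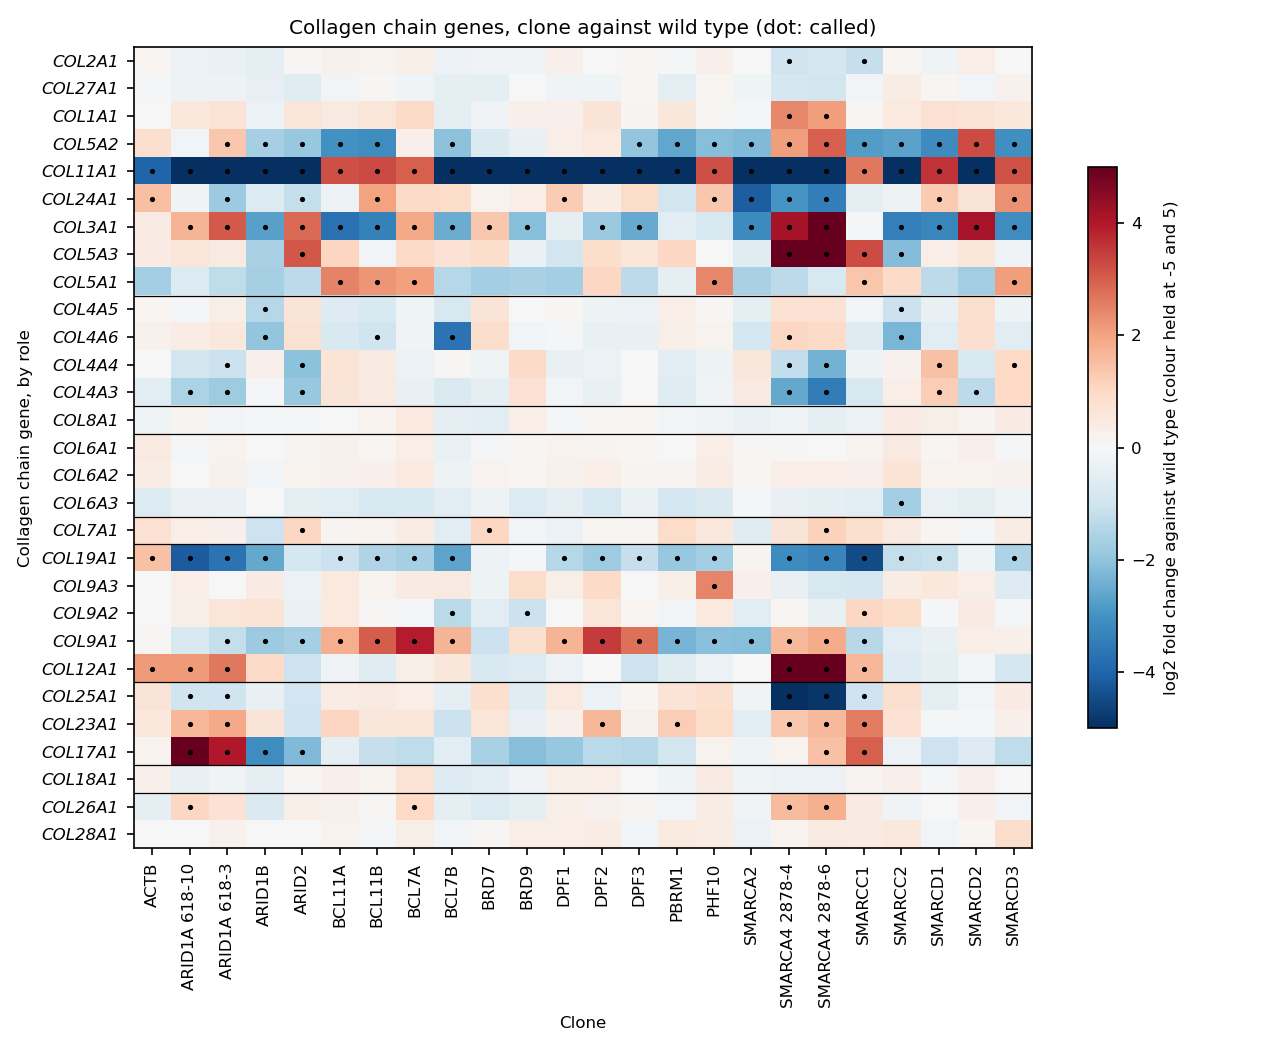
Log2 fold change against wild type for the 29 tested collagen chain genes (rows, by role) in the 24 clones (columns), with the colour held at -5 and 5 and a dot on each of the 77 pairs called higher and 100 called lower. COL11A1 is called in every clone, and COL6A1, COL6A2 and COL18A1 in none.

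The fibril-forming chains had 37 pairs called higher and 49 lower of 216, and COL11A1 varied most. COL11A1 encodes a minor chain of cartilage fibrils that limits their width. The 250 bases before its RefSeq start (GRCh38.p14) are shown because its level differed widely among the clones. Those of COL17A1, described further on, are shown for a promoter of another composition. RefSeq windows were found for 32 of the 44 members. Capitals mark matches on either strand to the TATA box (spelled TATAAA), the CCAAT box, the GC box (spelled GGGCGG) and the AP-1 site (spelled TGANTCA), none of which overlap.
COL11A1, chr1:103108523-103108772, minus strand: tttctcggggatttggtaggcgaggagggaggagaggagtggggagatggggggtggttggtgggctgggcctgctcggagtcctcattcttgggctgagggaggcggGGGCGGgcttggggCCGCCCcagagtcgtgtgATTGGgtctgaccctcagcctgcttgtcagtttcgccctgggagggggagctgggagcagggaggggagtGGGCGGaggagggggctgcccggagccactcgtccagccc
COL17A1, chr10:104085881-104086130, minus strand: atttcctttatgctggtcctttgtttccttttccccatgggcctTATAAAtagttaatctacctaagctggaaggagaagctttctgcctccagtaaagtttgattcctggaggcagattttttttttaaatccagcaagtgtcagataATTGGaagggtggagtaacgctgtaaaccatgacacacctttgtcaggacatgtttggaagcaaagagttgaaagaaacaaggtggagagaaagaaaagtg
The COL11A1 window held 3 matches to GGGCGG and 1 to CCAAT, with 68.8% G or C and 11 CpG dinucleotides. That of COL17A1 held 1 match to TATAAA and 1 to CCAAT, with 40.4% G or C and 1 CpG. Of 27305 RefSeq promoters cut to the same 250 bases, 42.3% held GGGCGG, 33% CCAAT, 11.1% TATAAA and 6.6% TGANTCA. Among the members' own windows 56.2% held GGGCGG, 28.1% CCAAT and 15.6% TATAAA, and TGANTCA was in none. A match describes letters and is not a binding site by itself.

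In wild type COL11A1 was at 19.4, 19.1 and 22.2 CPM. It was higher in 7 clones. SMARCD1 had 237, 266 and 252 CPM, BCL11B 205, 194 and 213, BCL11A 189, 176 and 209 and PHF10 176, 188 and 207. SMARCD3 had 181, 185 and 197 CPM, BCL7A 162, 155 and 172 and SMARCC1 116, 138 and 131. All libraries of these clones lay above all wild-type libraries, with log2 fold changes from 2.66 in SMARCC1 to 3.60 in SMARCD1. ACTB had 1.14, 1.54 and 1.05 CPM, below wild type and above the rest (log2 fold change -4.0, SE 0.11, adjusted p = 2.34e-36). In the other 16 clones COL11A1 had 1 to 5 counts per library, and the clone means ran from 0.0815 CPM in SMARCC2 to 0.184 CPM in SMARCA4 2878-4. The size of their fitted log2 fold changes, -6.73 to -7.74, depends on the prior count of the model. COL11A1 was thus called higher in 7 clones and lower in 17, and on in 9 groups with wild type. By the labels' clone numbers, ACTB and the 7 higher clones except PHF10 form 1 run. PHF10 lies among clones of low COL11A1. Clone series and lost subunit cannot be told apart here, and neither was tested.

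**Figure D3:**
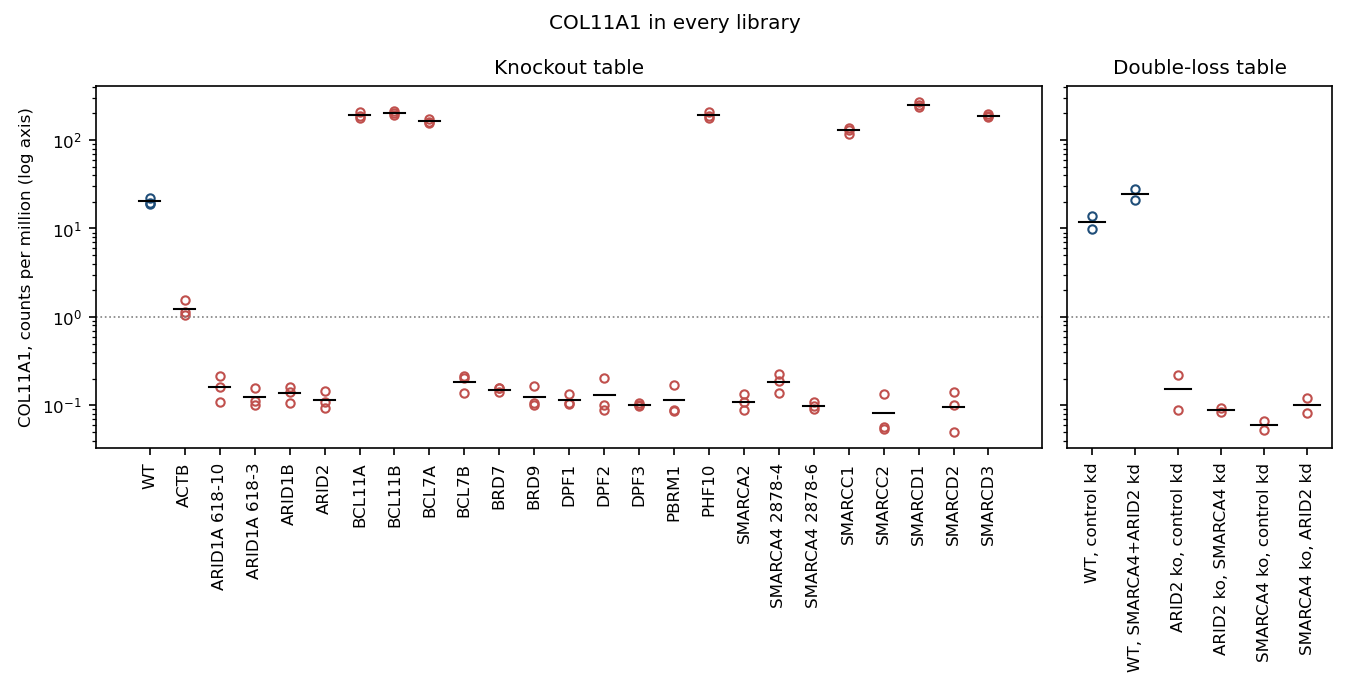
COL11A1 in every library, in CPM on a log axis, for the 25 groups of the knockout table and the 6 groups of the double-loss table. Above 100 CPM in every library lie 7 knockout clones, while wild type has a mean of 20.2, ACTB of 1.24, and the other 16 clones lie between 0.0815 and 0.184.

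COL5A2 encodes a chain of the type V collagen that starts fibrils, and lies beside COL3A1, the type III chain of soft tissues. COL5A2 was at 42.8, 48.7 and 59.1 CPM in wild type. It was highest in SMARCD2 with 489, 476 and 483 CPM (log2 fold change 3.26, SE 0.11, adjusted p = 2.11e-31). SMARCA4 2878-6 had 349.6, 415 and 428 CPM (2.99) and SMARCA4 2878-4 191, 220.1 and 218 (2.09). None of these libraries overlapped wild type. ARID1A 618-3 was higher too, with 113, 127 and 147 CPM (1.34), while ARID1A 618-10 with 43.02, 46.5 and 50.1 was not called. COL5A2 was lower in 13 clones, from ARID1B at 15.7 ± 0.822 CPM (-1.68) to SMARCD1 with 6.07, 5.67 and 5.64 (-3.14).

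COL3A1 was low in wild type, at 0.560, 0.539 and 0.994 CPM. SMARCA4 2878-6 reached 14.2, 27.9 and 23.97 CPM (log2 fold change 4.97, SE 0.26, adjusted p = 1.63e-23), SMARCA4 2878-4 7.53, 14.1 and 15.5 (4.15) and SMARCD2 12.1, 12.4 and 12.5 (4.11). These 3 clones lay far above all wild-type libraries. ARID1A 618-3 (5.96 ± 0.357 CPM), ARID2 (4.95 ± 0.340), BCL7A (2.66 ± 0.553), ARID1A 618-10 (2.34 ± 0.611) and BRD7 (1.84 ± 0.257) were called higher as well, BRD7 not without replicate 2 (adjusted p = 0.121). In the 11 clones called lower, means ran from 0.0485 CPM in BCL11A to 0.188 in DPF2, at few counts. Over the 25 group means log2 levels of COL3A1 and COL5A2 had a Pearson r of 0.80 and a Spearman rho of 0.81, as a description, since both genes were read from the same libraries. ARID2 differed from that pattern, with COL3A1 higher (2.82) and COL5A2 lower (-1.91).

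The remaining fibril chains were called in fewer clones. COL1A1 was at 20.5, 23.1 and 24.8 CPM in wild type, at 99.8, 118 and 139 in SMARCA4 2878-4 (log2 fold change 2.41, SE 0.14) and at 77.4, 99.8 and 115 in SMARCA4 2878-6 (2.10), with no overlap, and it was called in no other clone. COL5A3, a type V chain, rose from 0.218 ± 0.0915 CPM to 7.85 ± 1.45 (5.12) and 8.60 ± 0.581 (5.24) in the same clones, and was higher in SMARCC1 (2.21 ± 0.381) and ARID2 (1.96 ± 0.363). COL5A1, the usual partner of COL5A2, was at 0.173 ± 0.167 CPM in wild type and at most 1.02 ± 0.140, in BCL11A. It was called higher in 6 clones, or in 3 when only the 2 groups compared entered the fit. COL24A1 ran from 6.66 ± 0.858 CPM in SMARCD3 (2.27) to 0.0700 ± 0.0178 in SMARCA2 (-4.12), around 1.34 ± 0.101 in wild type, and was higher in 6 clones and lower in 5. COL2A1 was at 466, 466 and 536 CPM in wild type and 221, 236 and 212 in SMARCC1 (-1.14, adjusted p = 1.45e-18). Its other call, in SMARCA4 2878-4 at 239 ± 7.41 CPM (-1.01), stood at the threshold, and without replicate 3 or wild-type replicate 3 COL2A1 was lower in 1 clone.

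Type IV genes lie in head-to-head pairs, each transcribed outward from 1 stretch of DNA. The RefSeq starts of COL4A3 and COL4A4 are 419 bases apart and those of COL4A5 and COL4A6 380, and the 250-base windows share 82 and 121 bases. They are shown because the genes of a pair had similar patterns over the groups, with the same motifs in capitals.
COL4A3, chr2:227164374-227164623, plus strand: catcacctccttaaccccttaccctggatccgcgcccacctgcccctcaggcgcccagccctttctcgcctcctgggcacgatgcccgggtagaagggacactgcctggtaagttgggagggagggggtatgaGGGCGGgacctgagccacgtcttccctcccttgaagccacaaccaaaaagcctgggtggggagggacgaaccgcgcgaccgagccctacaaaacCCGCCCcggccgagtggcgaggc
COL4A4, chr2:227164206-227164455, minus strand: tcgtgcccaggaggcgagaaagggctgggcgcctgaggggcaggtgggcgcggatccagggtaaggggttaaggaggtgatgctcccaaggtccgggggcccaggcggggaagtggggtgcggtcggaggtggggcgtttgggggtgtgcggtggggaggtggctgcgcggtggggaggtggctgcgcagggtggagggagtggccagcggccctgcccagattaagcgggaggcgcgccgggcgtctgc
COL4A5, chrX:108439588-108439837, plus strand: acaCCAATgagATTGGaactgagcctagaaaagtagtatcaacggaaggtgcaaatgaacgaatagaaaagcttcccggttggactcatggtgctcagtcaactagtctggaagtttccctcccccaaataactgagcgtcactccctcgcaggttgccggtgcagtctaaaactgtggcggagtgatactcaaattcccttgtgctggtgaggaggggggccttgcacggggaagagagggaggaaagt
COL4A6, chrX:108439459-108439708, minus strand: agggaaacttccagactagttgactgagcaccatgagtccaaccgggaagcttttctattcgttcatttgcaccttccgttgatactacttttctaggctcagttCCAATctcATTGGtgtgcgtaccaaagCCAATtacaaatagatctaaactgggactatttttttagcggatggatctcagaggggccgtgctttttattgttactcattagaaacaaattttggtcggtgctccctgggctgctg
The COL4A3 and COL4A4 windows held 66.4% and 72.8% G or C, and that of COL4A3 held 2 matches to GGGCGG. The COL4A5 and COL4A6 windows held 51.2% and 44% G or C, with 2 and 3 matches to CCAAT. Both CCAAT matches of the COL4A5 window lie in the stretch that it shares with that of COL4A6.

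COL4A3 and COL4A4, chains of the kidney's filtering membrane, had a Pearson r of 0.95 and a Spearman rho of 0.92 over the 25 group means. COL4A3 was at 11.5, 11.1 and 9.22 CPM in wild type, at 2.64, 1.16 and 1.63 in SMARCA4 2878-4 (log2 fold change -2.54) and at 0.863, 1.24 and 0.684 in SMARCA4 2878-6 (-3.50, adjusted p = 4.72e-20). COL4A4 was at 19.3, 15.8 and 15.1 CPM in wild type, 6.24, 5.02 and 9.56 in 2878-4 (-1.24) and 3.56, 3.32 and 2.83 in 2878-6 (-2.36). Neither gene's libraries overlapped wild type in these clones. ARID2 had less of both, 2.86 ± 0.358 CPM of COL4A3 (-1.88) and 3.96 ± 0.891 of COL4A4 (-2.06). SMARCD1 had more of both, 25.3 ± 2.91 CPM (1.22) and 46.4 ± 3.85 (1.45). Over the clones COL4A3 was higher in 1 and lower in 6, and COL4A4 higher in 2 and lower in 4. Without wild-type replicate 2 the numbers higher were 2 and 1, without wild-type replicate 1 COL4A3 was higher in 2, and without wild-type replicate 3 COL4A4 was higher in 1.

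COL4A5 and COL4A6, the other head-to-head pair, had a Pearson r of 0.87 and a Spearman rho of 0.96. COL4A6 was at 66.2, 96.2 and 99.03 CPM in wild type and 4.93, 6.23 and 9.19 in BCL7B (log2 fold change -3.68, SE 0.20, adjusted p = 4.60e-22), far apart. COL4A5 in BCL7B was at 42.4, 49.04 and 43.99 CPM against 55.1, 84.97 and 97.5 and not called. In ARID1B COL4A5 (29.1 ± 5.89 CPM) and COL4A6 (22.3 ± 4.35) were both lower, as they were in SMARCC2 (38.8 ± 2.18 and 18.4 ± 2.34). Without wild-type replicate 3 COL4A5 was lower in 1 clone and no longer in 2. COL4A6 was called higher in SMARCA4 2878-4 at 176 ± 15.00 CPM (1.04), and the number of clones with higher COL4A6 was 0 without wild-type replicate 1 and 2 without wild-type replicate 2 or 3.

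**Figure D4:**
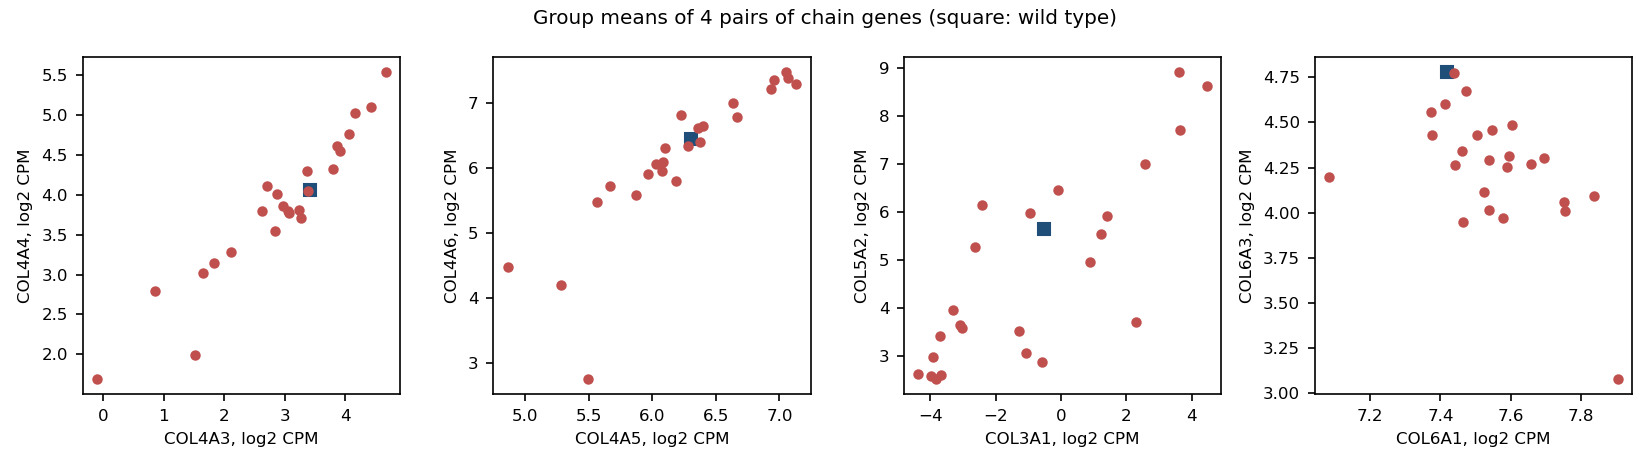
Group means in log2 CPM of 4 pairs of collagen chain genes, 1 point for each of the 25 groups, with wild type as a square. COL4A3 and COL4A4 (r = 0.95), COL4A5 and COL4A6 (0.87) and COL3A1 and COL5A2 (0.80) rise together, and COL6A1 and COL6A3 (-0.50) do not. The points include SMARCC2, where fold changes followed the GC content of genes.

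The beaded-filament chains varied little. Group means of COL6A1 ran from 136 CPM in BCL7B to 239.5 in SMARCC2, around 171 ± 6.02 in wild type. In SMARCC2 fold changes followed the GC content of genes, and its COL6A1 log2 fold change of 0.45 was 0.05 with that trend removed. COL6A1 and its partner COL6A2 had a Pearson r of 0.79. COL6A3, the long chain of the same trimer, was called in SMARCC2 alone, with 12.3, 5.27 and 7.73 CPM against 28.97, 38.4 and 14.96 in wild type (-1.71, adjusted p = 0.00331). No SMARCC2 library overlapped wild type, but without replicate 2 no clone was called and without replicate 1 there were 2. COL7A1, the anchoring fibril chain of skin, was at 1.37 ± 0.678 CPM in wild type and called higher in SMARCA4 2878-6 (3.11 ± 0.202), BRD7 (2.90 ± 1.59) and ARID2 (2.85 ± 0.390). The BRD7 libraries overlapped those of wild type.

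Among the FACIT chains COL19A1 was lower in 18 clones. It was at 12.6, 9.62 and 10.8 CPM in wild type, 0.735, 0.419 and 0.315 in SMARCC1 (log2 fold change -4.49), 0.696, 0.597 and 0.543 in ARID1A 618-10 (-4.16) and 0.945, 0.711 and 0.935 in ARID1A 618-3 (-3.69). The SMARCA4 clones followed at 1.10 ± 0.130 CPM in 2878-6 and 1.22 ± 0.0788 in 2878-4. ACTB was the 1 clone called higher, with 29.9, 27.7 and 32.2 CPM (1.46, adjusted p = 7.27e-11), all above wild type. ARID2, BRD7, BRD9, SMARCA2 and SMARCD2 were not called.

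COL9A1, a chain of the type IX collagen on cartilage fibrils, is a neighbour of COL19A1 on the opposite strand, with RefSeq starts 416641 bases apart. Over the group means the pair had a Pearson r of 0.015. COL9A1 was at 1.01, 0.719 and 0.678 CPM in wild type and higher in 9 clones, led by BCL7A with 11.9, 15.9 and 9.20 (log2 fold change 3.93, adjusted p = 2.81e-16) and DPF2 with 8.28, 8.08 and 11.00 (3.50). DPF1 (2.61 ± 0.865 CPM) and DPF3 (5.33 ± 2.31) were higher too. It was lower in 7 clones, lowest in PBRM1 at 0.159 ± 0.0656 CPM, and without replicate 1 of every group it was lower in 3. Its partner chains had other clones. COL9A3 was called in PHF10 alone, with 14.7, 13.9 and 11.9 CPM against 2.13, 2.47 and 2.89 (2.43), and COL9A2 was higher in SMARCC1 (4.90 ± 1.38 against 2.42 ± 0.728) and lower in BCL7B (0.934 ± 0.126) and BRD9 (1.15 ± 0.208).

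COL12A1, a FACIT chain of tendon and skin, was at the edge of detection in wild type, with 0.168, 0.135 and 0.136 CPM. SMARCA4 2878-4 had 5.002, 6.41 and 6.67 CPM (log2 fold change 5.35) and SMARCA4 2878-6 6.04, 6.45 and 5.83 (5.35, SE 0.28, adjusted p = 1.63e-23). The gene was on in these clones and not in wild type. In the double-loss table, which includes SMARCA4 knockout, COL12A1 had at most 9 counts in any library and was on in no group. ARID1A 618-3 (0.939 ± 0.378), ARID1A 618-10 (0.666 ± 0.161), ACTB (0.652 ± 0.205) and SMARCC1 (0.472 ± 0.139) were called higher at means under 1 CPM.

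The transmembrane chains had 11 pairs called higher and 7 lower of 72. COL17A1, which anchors epithelial cells to the basement membrane, was at 0.616, 1.89 and 0.271 CPM in wild type, an uneven group. ARID1A 618-10 had 37.9, 33.8 and 39.8 CPM (log2 fold change 5.29, SE 0.52, adjusted p = 2.34e-12), ARID1A 618-3 12.2, 17.8 and 16.6 (4.02) and SMARCC1 8.61, 6.42 and 7.66 (3.0). All these libraries lay above all of wild type. SMARCA4 2878-6 was at 2.58 ± 0.510 CPM (1.47). The lower calls in ARID1B and ARID2 were not made without wild-type replicate 2.

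COL25A1, a neuronal chain also found in amyloid plaques, was at 8.07, 5.39 and 5.83 CPM in wild type. SMARCA4 2878-4 had 0.112, 0.0464 and 0.0466 CPM (log2 fold change -6.45) and 2878-6 0.323, 0.149 and 0.182 (-4.85), close to the minimum. It was lower in SMARCC1 (3.13 ± 0.535 CPM), ARID1A 618-10 (3.19 ± 0.321) and ARID1A 618-3 (3.24 ± 0.164) as well, each near a log2 change of -1. COL23A1 was higher in 7 clones and lower in 0, from 0.513 ± 0.157 CPM in wild type to 3.09 ± 0.772 in SMARCC1 (2.57). Its call in PBRM1 (1.22) was not made with DESeq2 (adjusted p = 0.0714) or without wild-type replicate 1 or 3. Nor was it made in edgeR with only the 2 groups compared (0.126). COL26A1, placed outside these classes, was at 30.1 ± 1.88 CPM in wild type and higher in SMARCA4 2878-6 (103 ± 0.304), SMARCA4 2878-4 (89.1 ± 2.68), ARID1A 618-10 (62.3 ± 9.06) and BCL7A (60.9 ± 9.63). Without wild-type replicate 2 it was higher in 2 clones.

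By clone, both SMARCA4 clones had 16 of the 29 members called, 9 higher and 7 lower in 2878-4 (11.3% of all genes were called) and 10 higher and 6 lower in 2878-6 (10.2%). ARID1A 618-3 had 5 higher and 7 lower (6.1%), ARID1A 618-10 5 and 4 (6.28%), SMARCC1 7 and 5 (6.1%) and ARID2 3 and 7 (5.53%). In ARID1B all 8 calls were lower (6.86%), as were all 8 in SMARCC2 (6.49%). In SMARCC2 fold changes followed the GC content of genes (Spearman rho 0.48 over 14508 genes). In the other clones rho was at most 0.21 in size. All 8 SMARCC2 calls were also made with the GC trend removed. Of these, the COL5A3 call, at 0.0482 CPM near the minimum, was not made with DESeq2 or with only the 2 groups compared. Nor was it made without replicate 2 or 3, or without wild-type replicate 2 or 3. Among the clones of high COL11A1, 8 members were called in BCL11B (3.81%), 7 each in SMARCD1 (4.57%), SMARCD3 (3.47%) and PHF10 (2.68%), and 6 each in BCL11A (4.14%) and BCL7A (3.54%). BCL7B had 7 calls (6.12%). DPF2 (2.98%), DPF3 (1.34%), PBRM1 (2.96%) and SMARCA2 (2.19%) had 5 each, and ACTB (5.1%), DPF1 (1.49%) and SMARCD2 (2.8%) had 4. Fewest were made in BRD7 (3, where 3.55% of all genes were called) and BRD9 (3, 3.28%). The median log2 fold change of the 29 members ran from -0.49 in BCL7B to 0.33 in BCL7A.

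Beside the collagen differences, the summed level of 9 listed fibroblast genes differed between clones. It was 430.0 to 609 CPM in 2878-4 and 456 to 592 in 2878-6 against 126 to 140 in wild type. In 2878-6 PDGFRA was at 272 ± 36.7 CPM against 92.5 ± 10.1 and POSTN at 203 ± 37.02 against 1.38 ± 0.379, and these genes carried most of the sum. FBN1 (25.6 ± 2.62 CPM in 2878-4 and 28.00 ± 2.83 in 2878-6 against 35.8 ± 5.34) and S100A4 (0.809 ± 0.390 and 0.667 ± 0.171 against 1.96 ± 0.150) had lower means in both clones, while THY1 (3.72 and 3.04 against 0.682) and PDGFRB (10.3 and 5.03 against 0.454) had higher ones. In each SMARCA4 clone 5 of the 9 were on, against 3 in wild type. The defining genes DCN (0.0980 CPM), LUM (0.0497) and FAP (0.0497) were near the minimum in 2878-6 as in wild type. In other clones the sum ran from 19.1 to 21.5 CPM in BCL7B and 27.9 to 37.3 in ARID1B up to 215 to 256 in ACTB and 232 to 261 in BRD7. SMARCC2 had 65.0 to 75.9 CPM. BCL11A (26.1 to 35.3), BCL11B (27.3 to 32.5), SMARCD1 (27.5 to 32.9) and SMARCD3 (29.7 to 42.5) were also below the wild-type range, as were BRD9, DPF3 and SMARCA2 at 57.4 to 73.6. ARID2 (202 to 211) and SMARCD2 (194 to 233) were above it. So were DPF2 (169 to 187), ARID1A 618-10 (163 to 188), BCL7A (152 to 184) and DPF1 (152 to 159). PHF10 (120 to 124) and SMARCC1 (74.1 to 122) were below it, while ARID1A 618-3 (131 to 171) and PBRM1 (118 to 129) overlapped it. The part of other cells in the collagen differences was not tested.

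Clones of 1 gene also differed from each other. Between ARID1A 618-10 and 618-3 there were 3 members called, where 1.26% of all genes were. COL5A2 was at 46.5 ± 3.54 CPM in 618-10 and 129 ± 17.4 in 618-3 (log2 difference -1.46, adjusted p = 2.38e-16), and COL3A1 at 2.34 ± 0.611 and 5.96 ± 0.357 (-1.34). COL24A1 was at 1.19 ± 0.499 and 0.384 ± 0.107 CPM (1.62), a call not made without replicate 1 or 2. Between SMARCA4 2878-4 and 2878-6 COL4A4 alone was called (1.85% of all genes), at 6.94 ± 2.35 and 3.24 ± 0.374 CPM (1.12), not without replicate 3.

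The double-loss table was fitted apart and has its own wild type under a control knockdown. Some collagen levels there differed from wild type of the knockout table. COL5A2 was at 6.38 ± 1.80 CPM (SD, n = 2) against 50.2 ± 8.23 (n = 3), COL4A6 at 26.9 ± 7.91 against 87.1 ± 18.2 and COL11A1 at 11.9 ± 2.82 against 20.2 ± 1.73. The tables were not normalized together, and this was not tested. SMARCA4 mRNA was at 19.5 ± 12.5 CPM after knockdown in ARID2 knockout and 86.3 ± 61.1 after the double knockdown in wild type, where it was not called lower, against 307 ± 13.9. ARID2 mRNA was called lower in none of the 5 groups set against wild type (adjusted p from 0.262 to 0.952). Of 130 pairs of a member and a group, 18 were called higher and 23 lower than wild type, where the shares over all genes were 2.52% and 2.7% (5.22% in either direction).

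SMARCA4 knockout under the control knockdown had 5 members higher and 6 lower (6.09% of all genes). COL5A2 had 117 and 107 CPM against 7.65 and 5.11 in wild type (log2 fold change 4.07, SE 0.25, adjusted p = 3.45e-06), and COL9A1 6.06 and 8.46 against 0.383 and 0.660 (3.76). COL26A1 (54.2 ± 0.811 CPM against 20.4 ± 0.0737), COL3A1 (1.43 and 1.45 against 0.0638 and 0.165) and COL5A3 (1.09 ± 0.0435 against 0.187 ± 0.0847) were higher too, the last 2 not without wild-type replicate 1. COL25A1 had 0.266 and 0.794 CPM against 8.67 and 15.4 (-4.58) and COL4A3 0.744 and 1.52 against 10.8 and 24.2 (-4.01). COL4A4 and COL2A1 were called lower but not without SMARCA4 knockout replicate 1, and COL24A1 was at the minimum. COL11A1 had the minimum of 1 count in both libraries against 156 and 169 counts in wild type.

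ARID2 knockout under the control knockdown had 1 member called (1.57% of all genes), COL11A1 with 0.219 and 0.0889 CPM against 9.95 and 13.9. With SMARCA4 knocked down in these cells 3 members were higher and 9 lower than wild type (9.31%). COL4A5 (76.4 ± 0.927 CPM against 31.9 ± 3.03), COL5A3 (1.31 ± 0.154 against 0.187 ± 0.0847) and COL7A1 (5.37 ± 1.45 against 1.44 ± 0.413) were higher. The lower members were COL2A1, COL4A3, COL4A4, COL9A2, COL11A1, COL18A1, COL24A1, COL25A1 and COL27A1. COL18A1 and COL27A1, called in no knockout clone, were at 73.2 and 74.6 CPM against 125 and 188 and 48.4 and 71.5 against 137 and 128. Without replicate 1 of the SMARCA4 knockdown, COL4A4, COL9A2, COL18A1, COL24A1 and COL27A1 were not called. Against ARID2 knockout with the control knockdown 2 were called (2.88%). COL2A1 had 195 and 224 CPM against 486 and 556 (log2 fold change -1.37, adjusted p = 0.00391). COL4A3 had 0.927 and 0.586 against 4.70 and 7.38 (-3.06, adjusted p = 0.0289), a call not made without any 1 of the 4 libraries. COL5A2 was not called, at 5.75 and 4.43 CPM against 5.25 and 5.07.

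SMARCA4 knockout with ARID2 knocked down had 9 members higher and 7 lower than wild type (8.55%). COL5A2 (4.98), COL3A1 (7.10), COL5A3 (3.94), COL26A1 (1.16) and COL9A1 (2.33) were higher on the log2 scale, as were COL4A5, COL4A6, COL7A1 and COL17A1. COL25A1 had 0.120 and 0.245 CPM, COL4A3 0.959 and 1.14 and COL2A1 260.2 and 271, all lower, with COL4A4, COL9A3, COL11A1 and COL24A1. COL4A4, COL4A6, COL7A1, COL9A3 and COL17A1 were not called without replicate 1 of this group. Several of these calls stood near the threshold in other settings too. COL17A1 was not called with DESeq2 (adjusted p = 0.103), nor COL9A3 in edgeR without a filter (0.0505), nor either of them without replicate 2. COL4A6 and COL7A1 were not called without wild-type replicate 1. COL9A1 was not called without replicate 2 (adjusted p = 0.0668) or without wild-type replicate 1 (0.0607). Against SMARCA4 knockout with the control knockdown COL3A1 was 1 of 3 genes called of all tested (0.0205%), with 19.2 and 13.8 CPM against 1.43 and 1.45 (log2 fold change 3.51, SE 0.40, adjusted p = 0.0183). It was higher in both libraries, but without any 1 of the 4 the adjusted p lay between 0.0742 and 0.596. COL5A2 had 246 and 171 CPM against 117 and 107 and was not called. Wild type with both knockdowns had 1 member called (0.562%), COL4A5 with 75.7 and 54.6 CPM against 34.1 and 29.8 (1.01, adjusted p = 0.0333), a call not made without wild-type replicate 1 or 2 (adjusted p = 0.062 and 0.202) and in several other leave-outs. COL11A1 there had 27.8 and 21.02 CPM against 9.95 and 13.9, not called. COL1A1 (37.8 ± 6.28 CPM in SMARCA4 knockout under the control knockdown against 28.9 ± 7.01) and COL19A1 (4.19 ± 0.147 against 5.72 ± 2.37) were called in no group.

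**Figure D5:**
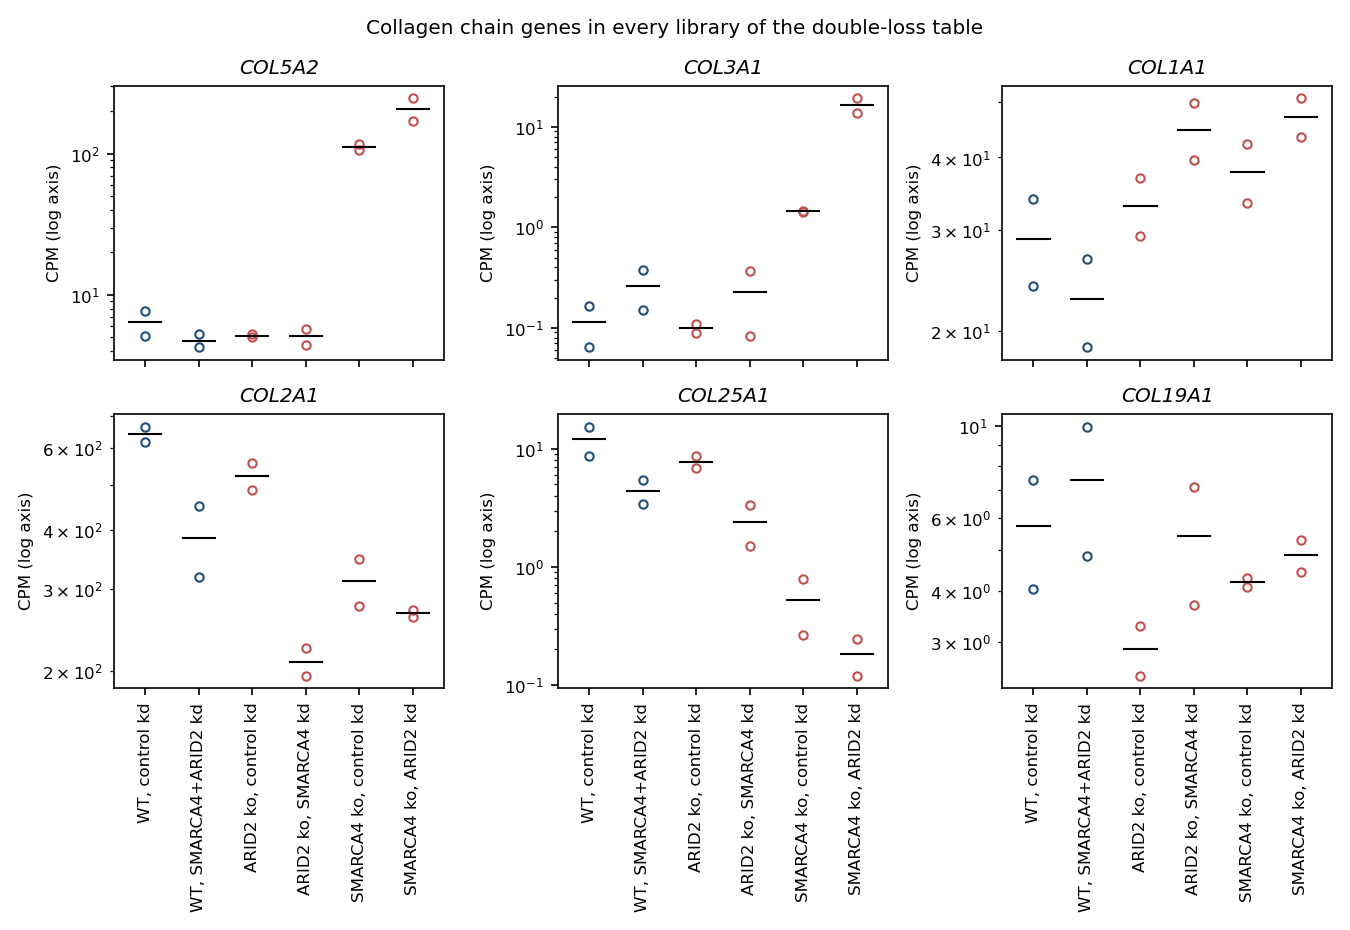
COL5A2, COL3A1, COL1A1, COL2A1, COL25A1 and COL19A1 in the 6 double-loss groups, in CPM on a log axis, with a circle for each library and a bar for the mean of 2. COL5A2 lies at 107 CPM or more in all 4 libraries of SMARCA4 knockout, and COL3A1 is highest where ARID2 was knocked down in those cells.

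SMARCA4 was lost by knockdown in ARID2 knockout and by knockout in wild type, and the difference between these effects was tested, a test chosen after values had been seen. COL5A2 differed by -4.15 on the log2 scale (SE 0.36, adjusted p = 0.000252), with effects of -0.08 on knockdown and 4.07 in the knockout. COL26A1 differed by -1.34 (adjusted p = 0.0453), with effects of 0.03 and 1.36. COL11A1 differed by 6.76 (adjusted p = 0.0453), but it was already at 1 or 2 counts in ARID2 knockout, so no further fall on knockdown could be measured. Over all genes 1.06% were called. The effects differ in the way SMARCA4 was lost and in ARID2, and these cannot be told apart.

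Genes that make, modify or bind collagen were followed from a list of 54, of which 45 were tested. Of 1080 pairs with a clone 39 were called higher and 60 lower (9.17%, against 4.7% over all genes), and 26 of the 45 genes were called in no clone. The crosslinking enzyme PXDN alone made 23 and the receptor DDR2 14 of the lower calls, so the share does not describe the list as a whole. Folding and export genes had 1 call in 192 pairs, the collagen chaperone SERPINH1 in ARID1B (164 CPM against 333 ± 32.4). Of the prolyl and lysyl hydroxylases P4HA2 and LEPREL1 were each higher in 2 clones, with 0 lower. LEPREL1 was at 0.0938 ± 0.0395 CPM in wild type, near the minimum, so a fall could hardly have been measured. COLGALT2, which adds galactose to collagen, was higher in 3 clones and lower in 2. Of the propeptide-cleaving group TLL1 was higher in 5, ADAMTS3 in 2 and TLL2 in 1. TLL1 was low in wild type too, at 0.188 ± 0.0654 CPM.

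The crosslinking enzymes had 27.8% of their pairs called, 11 higher and 29 lower, most of the lower ones in 1 gene. PXDN, the peroxidase that links type IV collagen, was lower in 23 clones, from 5.03 ± 1.97 CPM in wild type to 0.0473 in SMARCD3, and was not called in SMARCC2 (6.36 CPM). LOXL2, a lysyl oxidase, was higher in 4 clones, up to 66.5 CPM in SMARCA4 2878-6 from 8.48 ± 1.01, and LOXL4 in 5. Others of that family went lower or both ways, LOXL1 lower in 4 clones, LOXL3 lower in 1, and LOX higher in 2 and lower in 1. Of the receptors the kinase DDR2 was lower in 14 clones and higher in 2, at 21.2 CPM in SMARCA2 against 4.96 ± 0.412, the integrin chain ITGA1 was higher in 6 and DDR1 in 1. Of the collagen-cutting enzymes MMP2 was higher in 4 clones and lower in 5, at 6.44 CPM in DPF2 against 0.597 ± 0.211, MMP1 was lower in 8 and CTSK in 1. In the double-loss table PXDN was at 5.13 ± 0.317 CPM in wild type and called lower in the 4 groups of ARID2 or SMARCA4 knockout, at 0.144 CPM or less. It was at 2.19 CPM after both knockdowns in wild type, not called (adjusted p = 0.157).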

How the data were processed

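RNA-seq counts of 87 HAP1 libraries were used as the authors deposited them, as 2 tables of estimated counts per gene, 75 libraries of knockout clones and wild type and 12 of double loss. Per the labels' protocols, stranded poly-A libraries were read as 50 base single reads. Per the submitters' processing notes Trimmomatic, Bowtie, Picard and DESeq2 were used with GRCh37 and hg19. How reads were counted, and with what use of strand, is not given in the sources used here, so reads of overlapping antisense genes cannot be told apart. All were whole numbers, so rounding changed none. Groups came from the labels, and 8 columns that matched no sample were not used. edgeR 4.0.16 in R 4.3.3 was fitted to each table with 1 term per group (filterByExpr, TMM, robust quasi-likelihood test), leaving 16159 and 14601 genes, and was tested on simulated data. CPM used library totals without TMM. The authors also deposited log2 values named as TPM, quantile-normalized. They followed log2 CPM (median difference 0.000644 over 14508 genes) and not transcript length, so they served only for an alternative with limma 3.58.1 and for choosing the 12 highest members to name. CPM per kb used GENCODE v29 transcript lengths. Named members were COL11A1, those 12, every member called in 6 or more clones, and the largest called change per clone in each direction. Others were named after their values were seen. Alternatives were RLE scaling, no filter, DESeq2 1.42.0, only the groups compared, a replicate block, adjusted p alone and leaving out libraries. The knockdown against knockout difference and the GC check were chosen after seeing the data. The members and gene lists were chosen with earlier results of these data known.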

Additional observations from a re-analysis of the deposited data

Results flagged for a closer look

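Between ARID1A clones 618-10 and 618-3 the test of the difference gave a log2 value of 1.62 for COL24A1, -1.34 for COL3A1 and -1.46 for COL5A2. Between SMARCA4 clones 2878-4 and 2878-6 it gave 1.12 for COL4A4. Between the effect of SMARCA4 knockdown in ARID2 knockout and that of SMARCA4 knockout in wild type, the test of the difference gave -1.34 for COL26A1 and -4.15 for COL5A2. For COL11A1 it gave 6.76, but ARID2 knockout under the control knockdown already had 1 or 2 counts, so no further fall on knockdown could be measured and the size of this value depends on that floor.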

How the results depend on the processing

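With adjusted p alone 144 pairs of a member and a clone were called higher in place of 77 and 149 lower in place of 100, and 7 members differed between clones of 1 gene in place of 4. With a replicate block 5 members were called for knockdown against control knockdown in place of 3, and in the double-loss table pairs called higher were 21 in place of 18 and those called lower 29 in place of 23. Leaving out libraries in turn, pairs called higher ran from 71 to 84 and lower from 92 to 98, members called between clones of 1 gene from 3 to 4, and members differing among groups stayed at 26. In the double-loss table pairs called higher ran from 12 (without wild-type replicate 1) to 19, lower from 17 (without replicate 1 of ARID2 knockout with SMARCA4 knockdown) to 27, and knockdown calls from 2 to 4, where an arm left with 1 library was assumed to vary like the others. Of the 177 called pairs 175 were still called with RLE scaling, 171 without a filter, 164 with DESeq2, 175 with the replicate block, 157 of 170 with only the 2 groups compared, 163 of 169 with the authors' log2 values and limma, and 157 to 169 with libraries left out, fewest without replicate 2. Of the 41 double-loss pairs 33 (without wild-type replicate 1) to 41 were still called. In these the sign was opposite in 0. Without SMARCC2 77 pairs were higher and 92 lower of 667. Of 1415 single values 1342 kept their side of the threshold, 73 fell below it and 0 changed direction, and the cause was not tested. Replicate numbers were not taken to pair libraries, since 367 of 900 same-numbered pairs in the knockout table had a correlation above 0.1 (mean 0.038) and 26 of 30 in the double-loss table (mean 0.297, lowest 0.091), short of every pair. All 12 double-loss libraries correlated best with their own number, a hint from the data. With 2 libraries a group their deviations from the group mean mirror each other, so these are not 12 independent cases. At these depths 1 count was worth 0.0499 CPM in the median knockout library, so differences among levels of a few counts were poorly measured, even where called.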
